A study of Homo sapiens with 6 samples.

Results

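The genes UMODL1, TFF3, TFF2, TFF1, TMPRSS3, UBASH3A, RSPH1, SLC37A1, PDE9A and WDR4 were described as one neighbourhood of band 21q22.3 in K562, a human erythroleukemic cell line established from chronic myeloid leukemia. These 10 genes, out of 61661 in the deposited table, lie between positions 42062959 and 42879568 of chromosome 21 (GRCh38, GENCODE release 29), in the order given. The neighbourhood was chosen by the deposited read counts, because 2 of its genes, UBASH3A and TMPRSS3, had lower read counts in shMETTL3 cells and higher read counts in shMETTL14 cells than in control cells. The values of these 2 genes are therefore given as a description without a test. The other 8 genes were taken for their position, and their differences were tested.

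RNA-seq libraries were made from K562 cells that carried a control shRNA (shCTR, genotype WT in the labels), an shRNA against METTL3 (shMETTL3) or an shRNA against METTL14 (shMETTL14), with 2 libraries per group and 6 in all. The labels name pleural effusion as the tissue of origin, and all groups were grown in RPMI1640 medium and collected in logarithmic growth. By the study's methods, the control and METTL3 hairpins were delivered by lentivirus with puromycin selection, and the control hairpin carried a nonsense sequence, so these groups share vector and selection. The METTL14 construct is not described in the sources used here. The labels do not say whether the 2 libraries of a group came from separate cultures, so p-values measure the spread between these libraries, which may be technical. Both knockdowns were compared with the same shCTR libraries, and in bulk RNA fewer cells with a transcript and less transcript per cell cannot be told apart.

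METTL3 is the catalytic subunit and METTL14 the RNA-binding partner of the complex that places N6-methyladenosine (m6A) on mRNA, a mark that can alter the stability, splicing and translation of a transcript. The neighbourhood holds genes of unrelated function. UBASH3A (also TULA or STS-2) is a T-cell protein that binds ubiquitin and CBL and dampens T-cell receptor signaling. TMPRSS3 is a membrane-anchored serine protease needed for hearing. The trefoil factors TFF1, TFF2 and TFF3 are small peptides secreted with mucins by the gut and other mucosae. SLC37A1 is a phosphate-linked glucose-6-phosphate antiporter, PDE9A a phosphodiesterase that hydrolyses cGMP, and WDR4 the partner of METTL1 in the tRNA m7G methyltransferase. RSPH1 is a radial spoke protein of motile cilia, and UMODL1 is a uromodulin-like protein.

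Library totals ran from 19292574 to 20115304 reads. METTL3 went from 1788 and 1728 reads with the control hairpin to 1031 and 938 with its own, and METTL14 from 656 and 655 reads to 375 and 404, so each targeted mRNA was lower in both libraries of its own knockdown. All 12 K562 markers, among them GATA1, KLF1 and the embryonic and fetal globins, passed the filter on low counts. The fetal globins were low: in shCTR cells HBG1 had 20 and 11 reads and HBG2 138 and 125 reads, beside 3904 and 4214 for the embryonic HBE1. CPM, read counts scaled to library size with TMM factors, are used for levels, and differences are log2 fold changes from edgeR's quasi-likelihood fit over the 6 libraries, with the standard error (SE). Adjusted p-values are Benjamini-Hochberg values over the 17686 genes that passed the filter, and a gene is called where the adjusted p is under 0.05.

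UBASH3A (ENSG00000160185, chr21:42403447-42447681, plus strand) and TMPRSS3 (ENSG00000160183, chr21:42371837-42396846, minus strand) stand head to head, with 6601 nt between their outermost GENCODE starts. For UBASH3A, 635 and 630 reads were counted in shCTR, 178 and 206 reads in shMETTL3, and 960 and 860 reads in shMETTL14 cells. TMPRSS3 had 80 and 86 reads in shCTR, 21 and 25 reads in shMETTL3, and 136 and 119 reads in shMETTL14 cells. Both genes were lowest in the shMETTL3 libraries and highest in the shMETTL14 libraries, and the 3 groups did not overlap for either gene.
As levels, UBASH3A stood at 32.5 ± 0.547 CPM in shCTR, 9.66 ± 0.852 CPM in shMETTL3 and 46.4 ± 3.53 CPM in shMETTL14 cells (SD, n = 2 each). TMPRSS3 stood at 4.27 ± 0.314 CPM, 1.16 ± 0.125 CPM and 6.5 ± 0.602 CPM (SD, n = 2 each). Against shCTR, the log2 fold change in shMETTL3 cells was -1.75 (SE 0.102) for UBASH3A and -1.88 (SE 0.235) for TMPRSS3, which correspond to 0.297 and 0.272 of the control level. In shMETTL14 cells it was 0.51 (SE 0.0855) for UBASH3A and 0.61 (SE 0.182) for TMPRSS3, or 1.43 and 1.52 times the control level. These values chose the neighbourhood and carry no test.

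Ranked by log2 fold change in shMETTL3 cells over the 17686 genes, TMPRSS3 was the 20th and UBASH3A the 27th from the lowest. In shMETTL14 cells they were only the 905th and 1221st from the highest. Their values with METTL3 knockdown were thus near the extreme of all genes, while those with METTL14 knockdown were of a size that many genes had.

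**Figure D1:**
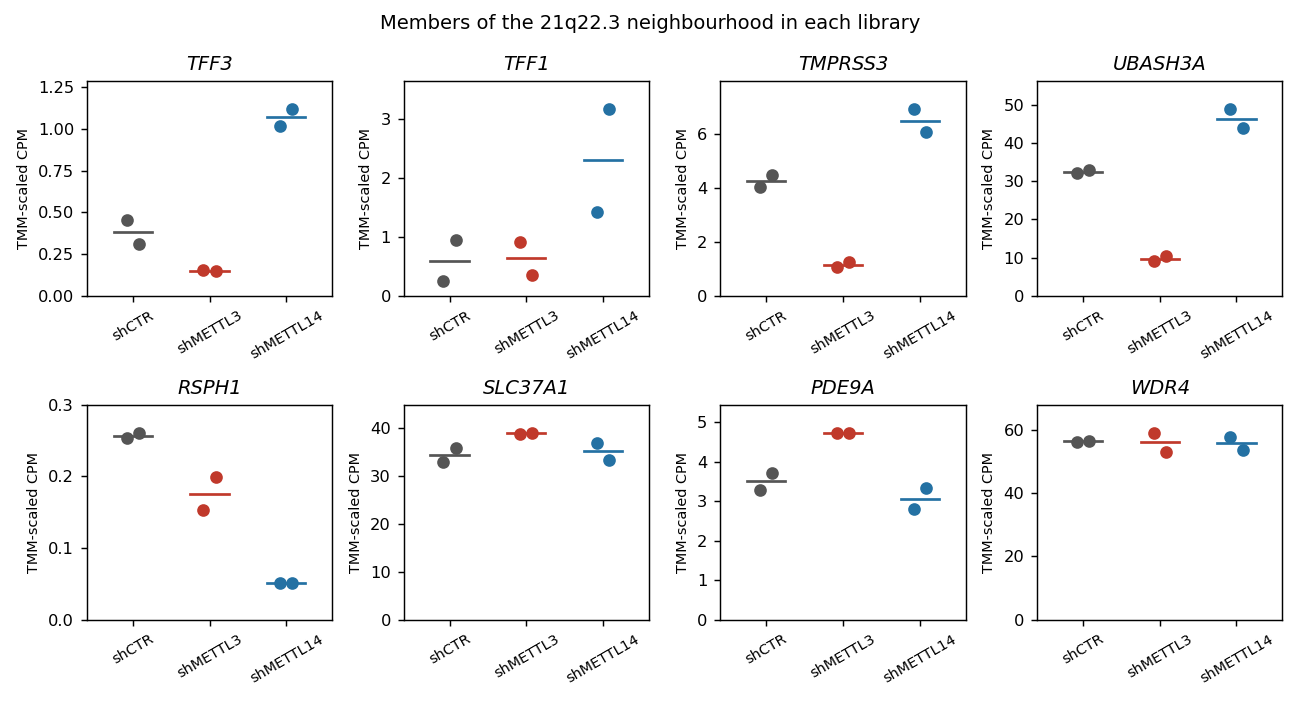
TMM-scaled CPM (vertical axes, each from 0) of 8 of the 10 genes in the 2 shCTR, 2 shMETTL3 and 2 shMETTL14 libraries. Points are libraries and lines are group means. TFF3, TMPRSS3 and UBASH3A step up from shMETTL3 to shCTR to shMETTL14 without overlap, and TFF1 and TFF3 lie at or under 3.16 CPM. WDR4 stays level, and SLC37A1 differs little, with both shMETTL3 libraries above the others.

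The starts of the neighbourhood's genes were compared in sequence where RefSeq (GRCh38.p14) held a promoter of 250 bases before to 50 bases after the start, which was the case for TMPRSS3, SLC37A1, WDR4 and UMODL1. Shown are the promoter of TMPRSS3, which moved with UBASH3A, and those of SLC37A1 and WDR4, 2 genes that were called in no comparison. The TMPRSS3 and SLC37A1 promoters lie wholly inside the GENCODE spans of these genes and not at their outermost ends. Distances given for TMPRSS3 and SLC37A1 use their GENCODE starts at 42396846 and 42496008 and not these promoters. The WDR4 promoter includes the outermost end of its gene. Capitals mark matches on either strand to AGATAA (the GATA motif), GGGCGG (the GC box) or TATAAA (the TATA box), and no match overlaps another.
TMPRSS3, chr21:42389100-42389399, minus strand: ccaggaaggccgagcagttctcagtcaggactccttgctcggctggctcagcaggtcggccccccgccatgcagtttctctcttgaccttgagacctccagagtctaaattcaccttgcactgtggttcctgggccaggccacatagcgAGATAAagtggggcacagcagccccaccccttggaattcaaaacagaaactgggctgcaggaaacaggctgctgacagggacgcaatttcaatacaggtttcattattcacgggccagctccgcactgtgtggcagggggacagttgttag
SLC37A1, chr21:42513602-42513901, plus strand: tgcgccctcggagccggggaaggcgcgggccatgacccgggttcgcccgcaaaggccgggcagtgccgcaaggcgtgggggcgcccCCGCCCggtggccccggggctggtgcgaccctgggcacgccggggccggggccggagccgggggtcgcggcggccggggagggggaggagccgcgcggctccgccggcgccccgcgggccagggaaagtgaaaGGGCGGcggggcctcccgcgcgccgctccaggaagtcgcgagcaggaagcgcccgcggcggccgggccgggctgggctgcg
WDR4, chr21:42879490-42879789, minus strand: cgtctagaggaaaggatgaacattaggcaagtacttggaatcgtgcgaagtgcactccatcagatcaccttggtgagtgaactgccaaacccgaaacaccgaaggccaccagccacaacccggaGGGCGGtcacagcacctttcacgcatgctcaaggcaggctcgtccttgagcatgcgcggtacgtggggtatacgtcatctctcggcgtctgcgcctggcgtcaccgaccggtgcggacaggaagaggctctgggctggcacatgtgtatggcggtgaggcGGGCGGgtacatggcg

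The TMPRSS3 promoter had 8 CG dinucleotides and 56.3% G and C, against a median of 14 and 58.7% over 35116 promoters of the same length. It held 1 AGATAA, a motif found in 10.3% of all promoters, and no GGGCGG. SLC37A1 had a second promoter, chr21:42499372-42499671, with 7 CG dinucleotides, 53.7% G and C and no GGGCGG, values close to those of TMPRSS3. The SLC37A1 promoter shown had 48 CG dinucleotides and 83.3% G and C, and 1.98% of promoters had as many CG. It held 2 GGGCGG, a motif found in 45.0% of all promoters, and the WDR4 promoter with 24 CG dinucleotides held 2 as well. TATAAA, found in 11.5% of promoters, was in none of the 3 sequences. A match of letters is a description of the window and not a binding site.

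The trefoil factor genes lie on the TMPRSS3 side of the pair, all on the minus strand. TFF1 (ENSG00000160182, chr21:42362282-42366594) starts 36.9 kb, TFF2 (ENSG00000160181, chr21:42346357-42351128) 52.3 kb and TFF3 (ENSG00000160180, chr21:42311667-42315651) 87.8 kb from the UBASH3A start. All 3 were near the limit of detection, so their values rest on few reads. Intervals given for them are exact 95% intervals for the ratio of summed reads and cover counting error only.

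TFF3 had 9 and 6 reads in shCTR, 3 and 3 reads in shMETTL3, and 20 and 22 reads in shMETTL14 cells. Its counts had the same order as those of UBASH3A and TMPRSS3, and the groups did not overlap. Against shCTR, the log2 fold change was -1.31 in shMETTL3 cells (SE 0.658) and 1.46 in shMETTL14 cells (SE 0.451), and edgeR called neither. As ratios of summed reads, these were 0.392 (interval 0.125 to 1.07) and 2.78 (interval 1.51 to 5.39). Between the knockdowns the log2 difference of shMETTL3 minus shMETTL14 cells was -2.77 (SE 0.542), and the ratio of summed reads was 0.141 (interval 0.0491 to 0.334). TFF3 passed the filter on low counts only through its shMETTL14 libraries, so its p after the filter is not independent of that group and is not given. With every detected gene tested and no filter, the adjusted p of this difference was 0.00183 by edgeR.

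TFF1 had 5 and 18 reads in shCTR, 18 and 7 reads in shMETTL3, and 28 and 62 reads in shMETTL14 cells. The shCTR and shMETTL3 libraries overlapped, and both shMETTL14 libraries lay above all the others. TFF1 was higher in shMETTL14 cells than in shCTR cells, with a log2 fold change of 1.94 (SE 0.487, adjusted p = 0.0194 by edgeR), and lower in shMETTL3 than in shMETTL14 cells, with -1.85 (SE 0.479, adjusted p = 0.0137 by edgeR). Against shCTR, its log2 fold change in shMETTL3 cells was 0.09 with a SE of 0.605 (adjusted p = 0.944 by edgeR), and the summed-read ratio of 1.06 had an interval from 0.58 to 1.96. The bounds at 2 SE, -1.12 to 1.30, do not reach the values of UBASH3A and TMPRSS3 in the same cells. The rise in shMETTL14 cells depended on single libraries: without shMETTL14 replicate 2 it was 1.26 (adjusted p = 0.343 by edgeR), and without shCTR replicate 1 it was 1.28 (adjusted p = 0.189 by edgeR). The difference between the knockdowns was likewise lost without shMETTL14 replicate 2, at -1.17 (adjusted p = 0.33 by edgeR), and without shMETTL3 replicate 2, at -1.31 (adjusted p = 0.185 by edgeR).

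TFF2 had 0 and 2 reads in shCTR, 0 and 3 reads in shMETTL3 and 0 reads in both shMETTL14 libraries, all at or under the floor of 3 reads a library, and no fold is given. The mucins with which trefoil factors are secreted (4 genes listed) did not pass the filter in any case, with summed levels between 0.509 and 0.847 CPM.

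On the UBASH3A side, SLC37A1 (ENSG00000160190, chr21:42496008-42581440, plus strand) starts 92.6 kb away. It had 648 and 685 reads in shCTR, 761 and 783 reads in shMETTL3, and 725 and 653 reads in shMETTL14 cells. Both shMETTL3 libraries were above the others and the other groups overlapped, yet the differences were small. The log2 fold change was 0.18 in shMETTL3 cells (SE 0.0823, adjusted p = 0.142 by edgeR) and 0.03 in shMETTL14 cells (SE 0.0831, adjusted p = 0.866 by edgeR). The bounds at 2 SE, 0.02 to 0.35 and -0.13 to 0.20, leave out changes of the size seen in UBASH3A.

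RSPH1 (ENSG00000160188, chr21:42472486-42496354, minus strand) overlaps SLC37A1 by 347 nt on the other strand. It had 5 and 5 reads in shCTR, 3 and 4 reads in shMETTL3 and 1 and 1 read in shMETTL14 cells, too few for the filter. Its shMETTL14 to shCTR ratio of summed reads was 0.198 (interval 0.0211 to 0.93), which is the opposite direction to TFF1, TFF3, TMPRSS3 and UBASH3A. Without the filter, its log2 fold change of -2.20 was not past the threshold (SE 0.982, adjusted p = 0.396 by edgeR over 37080 genes). Since the strand setting of the counting is not given in the sources used here, reads of the overlap cannot be told apart from those of SLC37A1.

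PDE9A (ENSG00000160191, chr21:42653636-42775509, plus strand), 250189 nt from the UBASH3A start, went the other way from the pair. It had 65 and 71 reads in shCTR, 93 and 95 reads in shMETTL3, and 55 and 65 reads in shMETTL14 cells. The shMETTL3 libraries were the highest, and shCTR and shMETTL14 libraries met at 65 reads. The log2 fold change against shCTR was 0.44 in shMETTL3 cells (SE 0.194, adjusted p = 0.134 by edgeR) and -0.19 in shMETTL14 cells (SE 0.206, adjusted p = 0.651 by edgeR). Between the knockdowns PDE9A was higher in shMETTL3 cells by 0.63 (SE 0.197, adjusted p = 0.0421 by edgeR), or 1.55 times. This call was lost with each single shMETTL3 or shMETTL14 library left out, with values from 0.51 to 0.76. It was also lost with all libraries kept and no filter on low counts.

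WDR4 (ENSG00000160193, chr21:42843094-42879568, minus strand) closes the neighbourhood, with its start 476121 nt from that of UBASH3A. It had 1110 and 1083 reads in shCTR, 1161 and 1065 reads in shMETTL3, and 1136 and 1051 reads in shMETTL14 cells, and all groups overlapped. Its log2 fold changes of -0.01 (SE 0.0737, adjusted p = 0.966 by edgeR) and -0.02 (SE 0.0738, adjusted p = 0.929 by edgeR) had bounds at 2 SE of -0.15 to 0.14 and -0.16 to 0.13. At the other end, UMODL1 (ENSG00000177398, chr21:42062959-42143453, plus strand) had 0 or 1 read in every library.

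Counted over the neighbourhood, 7 of the 10 genes were tested, and 5 of these were not used to choose it. In shMETTL3 against shCTR cells, edgeR called 0 of these 5 beside 16.5% of all tested genes (8.73% higher and 7.73% lower); 2 (SLC37A1 and PDE9A) had an unadjusted p under 0.05, and DESeq2 called 0. In shMETTL14 against shCTR cells, 1 of the 5 (TFF1, higher) was called beside 6.69% of all genes (3.43% higher and 3.26% lower), and DESeq2 called 0 and gave TFF1 and TFF3 no adjusted p. Between the knockdowns, 3 of the 5 were called (TFF3 and TFF1 lower and PDE9A higher in shMETTL3 cells) beside 12.1% of all genes (6.65% higher and 5.49% lower). DESeq2 called 0 of them there, with TFF1 at an adjusted p of 0.0738, PDE9A at 0.269 and no adjusted p for TFF3. Because TFF3 was tested only through the group where it was high, these counts do not stand for all members.

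**Figure D2:**
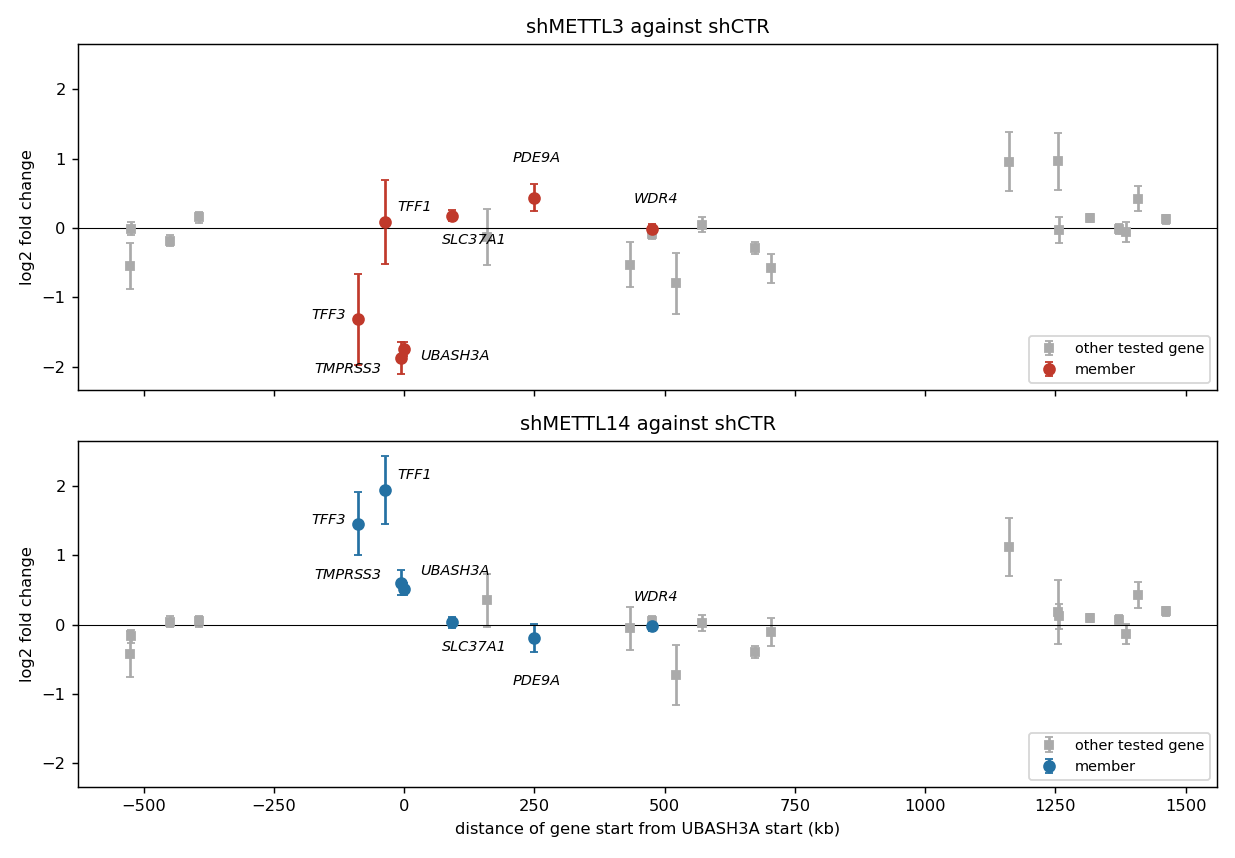
Log2 fold change against shCTR (vertical axes) of every tested gene from 1 Mb before the first to 1 Mb past the last gene of the neighbourhood, by distance of its start from the UBASH3A start in kb, for shMETTL3 (upper panel) and shMETTL14 cells (lower panel). Coloured circles are genes of the neighbourhood, grey squares are other genes, and bars are SE. UBASH3A and TMPRSS3 lie at -1.75 and -1.88 in the upper panel, and SLC37A1 and WDR4 lie near 0 in both.

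Between UMODL1 and WDR4 the annotation holds 23 genes, 13 of them not among the 10. Of these 13, only 2 passed the filter, both noncoding. ENSG00000235772, antisense within SLC37A1, had log2 fold changes of -0.13 and 0.35 in shMETTL3 and shMETTL14 cells, and the lincRNA ENSG00000225218 had -0.52 and -0.05. Neither was called by edgeR or DESeq2 in any comparison, and 0 had an unadjusted p under 0.05. ABCG1, the cholesterol transporter gene between UMODL1 and TFF3, had at most 1 read in a library.

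In the flanks of 1 Mb, 57 genes were annotated and 17 were tested. In each knockdown against shCTR, 1 of 17 or 5.88% was called there, beside 16.5% of all genes in shMETTL3 and 6.69% in shMETTL14 cells. The gene was CBS, cystathionine beta-synthase. It had 162 and 171 CPM in shCTR, 120 and 153 CPM in shMETTL3 and 119 and 135 CPM in shMETTL14 cells. CBS was lower in both knockdowns, with log2 fold changes of -0.29 (SE 0.0874, adjusted p = 0.0263 by edgeR) and -0.40 (SE 0.0877, adjusted p = 0.00839 by edgeR), and DESeq2 called it in neither. CBS has a near-identical copy in the genome assembly, so its counts are uncertain. Between the knockdowns 0 of the 17 flanking genes were called by edgeR or DESeq2, beside 12.1% of all genes in edgeR. Of the 17, 3 had an unadjusted p under 0.05, and the log2 differences of the 17 lay between -0.47 and 0.78.

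**Figure D3:**
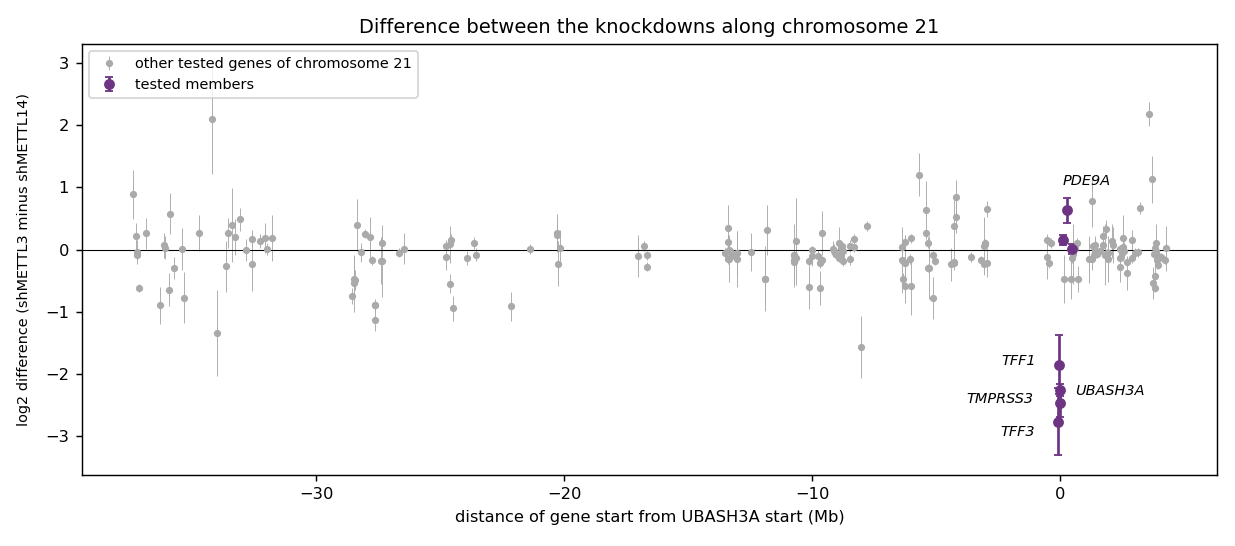
Log2 difference between the knockdowns (shMETTL3 minus shMETTL14, vertical axis) of the 210 tested genes of chromosome 21, by distance of their start from the UBASH3A start in Mb. Purple circles are genes of the neighbourhood, grey points are other genes, and bars are SE. TFF3, TMPRSS3, UBASH3A and TFF1 are the lowest 4 points, at -2.77, -2.48, -2.26 and -1.85.

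Along the whole chromosome, the 4 lowest of 210 differences between the knockdowns belonged to TFF3, TMPRSS3, UBASH3A and TFF1. The next was -1.57 for SMIM11 and the highest was 2.19 for COL6A1. The other 203 tested genes of chromosome 21 were called in 11.3% of cases between the knockdowns, next to 12.1% of all genes. By direction, 7 were higher and 16 lower in shMETTL3 cells, beside 6.65% and 5.49% of all genes. In shMETTL3 against shCTR, 12 were higher and 25 lower, beside 8.73% and 7.73% of all genes. In shMETTL14 against shCTR, 13 were higher and 7 lower, beside 3.43% and 3.26%. Whether this lean bears on the neighbourhood was not tested. TFF3, TFF1, TMPRSS3 and UBASH3A also follow each other directly among the tested genes, in this order, over a stretch from 42311667 to 42447681. In the genome as a whole, with 16674 placed tested genes, 4 such runs of 4 genes lower in shMETTL3 than in shMETTL14 cells were found, beside 12 runs of 3, 61 of 2 and 721 single genes, and there was no longer run. In the other direction, higher in shMETTL3 cells, there were 873 single genes, 98 runs of 2, 11 of 3, 4 of 4, 1 of 5 and 1 of 7, the last from ACTA2 to IFIT1 on chromosome 10. The share of all tested genes called lower was 5.49%. Of 16639 adjacent pairs of tested genes, 2 had both genes called and at least 4-fold lower in shMETTL3 than in shMETTL14 cells. These were TMPRSS3 with UBASH3A, and a pair of histone genes, H4C14 and HIST2H2AA3, which have near-identical copies. The pair UBASH3A and TMPRSS3 entered these ranks and counts by choice, and TFF3 was tested only through the group where it was high. The ranks, runs and pairs therefore describe the place and support nothing.

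A stricter form of the pattern, called lower in shMETTL3 and called higher in shMETTL14 cells, was found in 32 genes, 0.181% of all tested. The list holds UBASH3A and not TMPRSS3. Elsewhere on chromosome 21 it holds AF127936.1 (-0.38 in shMETTL3 and 0.51 in shMETTL14 cells) and LSS (-0.39 and 0.22), named after their values were seen. For UBASH3A and TMPRSS3 the pattern is a description, since it rests on the values that chose the neighbourhood. Ranked by the difference between the fold changes, UBASH3A (2.26) stood 4th of the 32. Above it were HEPACAM2, a cell adhesion protein of the immunoglobulin family (3.15), the noncoding RNA LINC00261 (2.49), and SYNE1, which encodes the nuclear envelope protein nesprin-1 (2.39). Below it came ABCG2, a drug and heme efflux transporter (2.07), LYZ, the lysozyme gene (1.97), LINC01619 (1.62) and Novel00602 (1.53), an identifier of the authors without a name.
The weaker pattern, in which both shMETTL3 libraries lay below and both shMETTL14 libraries above both shCTR libraries in CPM, was found in 552 genes, 3.12%. In the neighbourhood TFF3, TMPRSS3 and UBASH3A had it, and TFF1, SLC37A1, PDE9A and WDR4 did not. There were 26 adjacent pairs of tested genes that both had this order, and 1 pair in which both genes were called in both directions. That pair, named after its values were seen, was LINC00261 and its neighbour FOXA2, a forkhead transcription factor of endoderm, on chromosome 20. FOXA2 had 367 and 443 reads in shCTR, 306 and 326 reads in shMETTL3, and 559 and 561 reads in shMETTL14 cells.

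**Figure D4:**
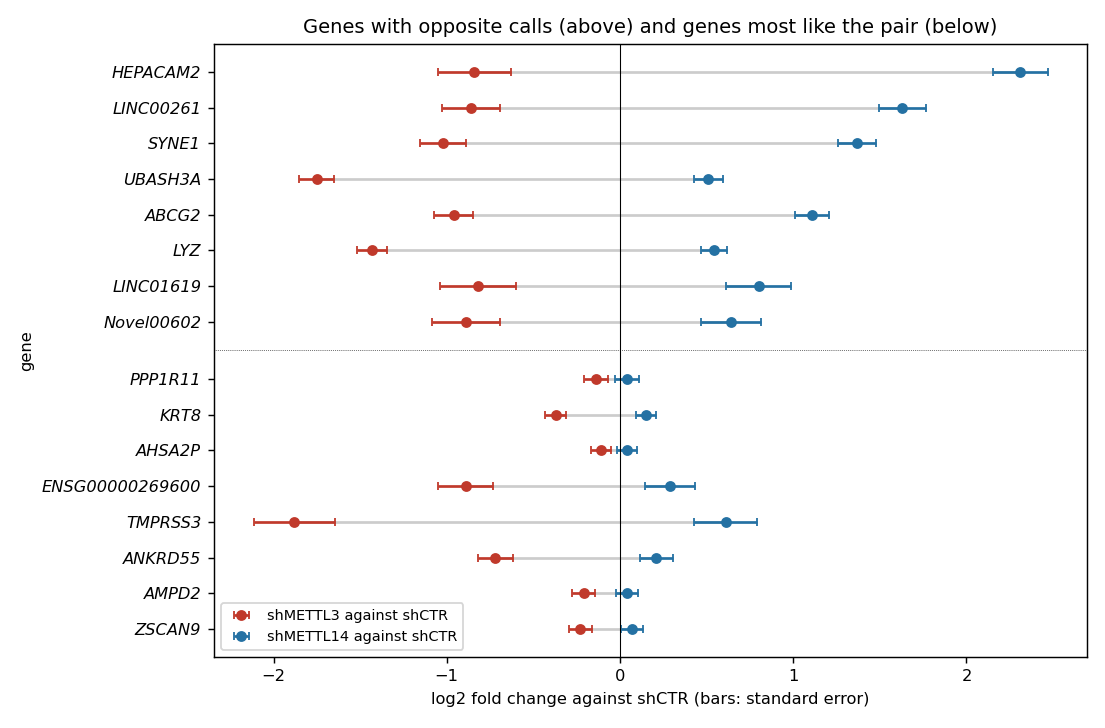
Log2 fold change against shCTR (horizontal axis) in shMETTL3 (red) and shMETTL14 cells (blue), with SE as bars. The upper 8 genes are those with the largest difference among the 32 called in opposite directions, and the lower ones have the profile most like that of UBASH3A or TMPRSS3. TMPRSS3 spans -1.88 to 0.61, while PPP1R11 spans only -0.14 to 0.04.

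By Pearson's r of log2(CPM + 0.5) over the 6 libraries, TMPRSS3 was the 2nd most similar of 16936 genes to UBASH3A (r = 0.9986), and UBASH3A was the most similar to TMPRSS3. Both genes were chosen for the same pattern over these groups, so a high r between them follows from the choice. The points share their 6 libraries and 3 groups, and the values are descriptive. The other genes closest to UBASH3A were PPP1R11 (0.9987), ANKRD55 (0.9958), AMPD2 (0.9943) and ZSCAN9 (0.9943). Those closest to TMPRSS3 were PPP1R11 (0.9966), KRT8 (0.9950), AHSA2P (0.9949) and ENSG00000269600 (0.9948). They had the same order of groups at a smaller size. The log2 fold changes in shMETTL3 and shMETTL14 cells were -0.14 and 0.04 for PPP1R11, an inhibitor of protein phosphatase 1, -0.72 and 0.21 for ANKRD55, and -0.37 and 0.15 for the keratin gene KRT8.
Within the neighbourhood, the r with UBASH3A was 0.872 for TFF3, 0.494 for TFF1, -0.0415 for WDR4, -0.727 for SLC37A1 and -0.957 for PDE9A. PDE9A, with a high value where the pair was low, had nearly the reverse profile.

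Levels between genes were compared as CPM per kb of exon. In shCTR cells the order was WDR4 (20.6), UBASH3A (8.31), SLC37A1 (5.03), TFF1 (1.08), TMPRSS3 (0.747), PDE9A (0.664), TFF3 (0.329), RSPH1 (0.086) and TFF2 (0.0629), with UMODL1 at 0. The 2 libraries of TFF1 spread over the values of TMPRSS3 and PDE9A, and RSPH1 and TFF2 rest on 5 or fewer reads a library, so these neighbours in the order are not separated. For UBASH3A, 34.4% of tested genes stood at or above its control level, and for TMPRSS3 80.4%. In shMETTL3 cells UBASH3A (2.47) stood below SLC37A1 (5.71), and in shMETTL14 cells it stood above, at 11.8 beside 5.15. TMPRSS3, at 0.747 in shCTR cells, was at 0.203 in shMETTL3 and 1.14 in shMETTL14 cells. UBASH3A was about an order of magnitude above TMPRSS3 per kb in every group.

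Markers of the cell types in which these genes are usually found were read in the same libraries. Of 19 T-cell markers 3 passed the filter, and their summed level was 6.12 to 7.68 CPM in shCTR, 9.01 to 9.42 CPM in shMETTL3 and 8.52 to 9.11 CPM in shMETTL14 cells. The 3 that passed were CD3D (62 to 118 reads a library) and the receptor genes TRBC1 (20 to 29 reads) and TRBC2 (11 to 24 reads). Among those that did not pass, CD3E, LCK, TRAC and SIT1 had at most 3 reads in a library, and SIT1 had 0 in all. Of the 3 that passed, edgeR called 1 in shMETTL3 cells, beside 16.5% of all genes, and 0 in shMETTL14 cells, beside 6.69%. The 1 called was CD3D, a T-cell receptor subunit, which was higher (log2 fold change 0.66, adjusted p = 0.0226 by edgeR). DESeq2 called 0 of the 3 in either knockdown. Of 17 epithelial markers 9 passed the filter, with a summed level of 521 to 547 CPM in shCTR, 421 to 443 CPM in shMETTL3 and 568 to 597 CPM in shMETTL14 cells. The order of this sum is that of the pair, and KRT8 made up most of it, with 299 and 309 CPM, 230 and 240 CPM, and 349 and 323 CPM.
In shMETTL3 cells 0 epithelial markers were called higher and 3 lower, beside 8.73% and 7.73% of all genes, with log2 fold changes of -0.57 for EPCAM, -0.37 for KRT8 and -0.26 for KRT18. In shMETTL14 cells KRT19 was called higher (0.47) and EPCAM lower (-0.40), beside 3.43% and 3.26% of all genes. EPCAM was thus lower in both knockdowns. GATA3 (1.10, adjusted p = 0.0733 by edgeR) and FOXA1 (0.30, adjusted p = 0.332 by edgeR) had their highest means in shMETTL3 cells and do not have the order of the pair. CDH1, KRT5 and KRT7 were at 0 in every library. Whether these markers bear on TMPRSS3 and the trefoil factors was not tested.

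The proteins with which the members work were taken from written lists. Of 16 genes for partners of UBASH3A and T-cell receptor signaling, 12 were tested. In shMETTL3 cells 2 were higher and 1 lower, beside 8.73% and 7.73% of all genes, with a median of 0.06 beside 0.00 over all genes. UBASH3B, the paralog of UBASH3A with the active phosphatase, was higher by 0.97 (SE 0.287, adjusted p = 0.0253 by edgeR), at 0.961 and 1.31 CPM in shCTR, 2.24 and 2.19 CPM in shMETTL3 and 1.78 and 1.58 CPM in shMETTL14 cells. The adaptor SH3KBP1 was higher by 0.47 (adjusted p = 0.0248 by edgeR) and the ubiquitin ligase CBLB was lower, with -0.28 (adjusted p = 0.0369 by edgeR). In shMETTL14 cells 1 was higher, TAB2, by 0.26 (adjusted p = 0.0403 by edgeR), and 0 were lower, beside 3.43% and 3.26% of all genes. DESeq2 called 0 of the 12 in either knockdown.

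Of 22 genes for the protease family, inhibitors and sodium channel related to TMPRSS3, 10 were tested. TMPRSS11F, a protease of the same family on chromosome 4, was lower in both knockdowns, with log2 fold changes of -0.92 in shMETTL3 (SE 0.234, adjusted p = 0.0103 by edgeR) and -1.99 in shMETTL14 cells (SE 0.266, adjusted p = 7.49e-05 by edgeR). It was the only gene of the list called against shCTR, beside 16.5% and 6.69% of all genes, and DESeq2 called it in shMETTL14 cells alone. TMPRSS3 and TMPRSS11F thus both had lower values with METTL3 knockdown and went opposite ways with METTL14 knockdown.

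Of 23 phosphodiesterase genes, 12 were tested, and 3 were higher and 0 lower in shMETTL3 cells, beside 8.73% and 7.73% of all genes. These were PDE11A by 1.06 (SE 0.199, adjusted p = 0.00111 by edgeR), PDE2A by 0.68 (SE 0.204, adjusted p = 0.0266 by edgeR) and PDE6D by 0.51 (SE 0.14, adjusted p = 0.0161 by edgeR), and DESeq2 called 1 of the 12. In shMETTL14 cells edgeR and DESeq2 called 0, beside 6.69% of all genes in edgeR, with 3 at an unadjusted p under 0.05. Between the knockdowns 4 were higher in shMETTL3 cells and 3 lower beside 12.1% of all genes called, with log2 differences of -2.17 for PDE1A, -0.51 for PDE3B and -0.30 for PDE8A. PDE1A had 2 to 8 reads in shCTR and shMETTL3 libraries and 16 in both shMETTL14 libraries, so it too passed the filter only through the group where it was high. Of the SLC37 and glucose-6-phosphatase genes (4 of 6 tested), METTL1, and the radial spoke genes (3 of 8 tested), edgeR and DESeq2 called 0 in any comparison. Of all genes, edgeR called 16.5% in shMETTL3 against shCTR, 6.69% in shMETTL14 against shCTR and 12.1% between the knockdowns. At an unadjusted p under 0.05 stood SLC37A3 and RSPH3, both in shMETTL3 cells.

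As the targeted enzymes methylate adenosine within short sequence contexts, the motif GGACT was counted on the sense strand of each gene's longest GENCODE transcript. UBASH3A had 3 in 2754 nt and TMPRSS3 3 in 3196 nt, or 1.09 and 0.939 per kb, beside a median of 0.909 over tested genes (quartiles 0.493 and 1.40). PDE9A had the most, 6 or 1.76 per kb, and 14.2% of tested genes had as many or more. SLC37A1 had 1.09 and WDR4 0.454 per kb. TFF3 had 1 in 1109 nt and TFF1 0 in 551 nt, transcripts too short to hold many. GGACT is only 1 form of the methylated context RRACH that the paper names (R for A or G, H for A, C or U). Whether the motif bears on the differences was not tested, and m6A itself was not measured in these libraries.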

How the data were processed

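RNA-seq of 6 K562 libraries was analysed, 2 each of shCTR, shMETTL3 and shMETTL14 cells, grouped by the submitters' labels. The authors deposited whole-number counts per gene, not normalized, after oligo(dT) enrichment and random-primed cDNA synthesis. Their processing notes name HTSeq 0.6.1 and hg38, and the aligner, annotation release and strand setting are not given in the sources used here. Identifiers without an Ensembl ID, 986 of 61661, held 0.635% to 0.703% of reads and stayed in the totals. Symbols and positions came from GENCODE release 29 by Ensembl ID, and promoters from RefSeq (GRCh38.p14).

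Genes were filtered with filterByExpr (minimum count 10), scaled by TMM and tested by quasi-likelihood in edgeR 4.0.16 (R 4.3.3), with all libraries in 1 fit. Adjusted p-values are Benjamini-Hochberg values, called under 0.05. DESeq2 1.42.0, its size factors, library size alone, no filter, the compared groups only, a replicate block, a correction for GC content and length (mgcv 1.9.3) and leaving out each library were alternatives. The steps were tested on simulated data. PCR copies could not be told apart, so intervals and the floor of 3 reads cover counting error only. The rule for named genes took all 10 genes, other genes between them, called genes within 1 Mb, the 5 most similar to UBASH3A and to TMPRSS3, the 8 with the largest opposite change, and called genes of the lists. Members and lists were chosen with earlier results of these data known.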

Additional observations from a re-analysis of the deposited data

Results flagged for a closer look

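Between the knockdowns, 3 genes of the neighbourhood that were chosen by position differed by the test of the difference itself (edgeR's quasi-likelihood test, Benjamini-Hochberg adjustment over all tested genes). The log2 difference of shMETTL3 minus shMETTL14 cells was -2.77 for TFF3, with 3 and 3 reads against 20 and 22 reads. TFF3 passed the low-count filter only through its shMETTL14 libraries, and without the filter its adjusted p was 0.00183 by edgeR. For TFF1 it was -1.85, with 18 and 7 reads against 28 and 62 reads. For PDE9A it was 0.63, with 93 and 95 reads against 55 and 65 reads. Each gene had both shMETTL3 libraries on one side of both shMETTL14 libraries. DESeq2 called 0 of the 3, and the shMETTL3 counts of TFF3 are at the floor of 3 reads a library. As given above, the calls of TFF1 and PDE9A were lost with single libraries left out, and that of PDE9A also without the filter. Over all alternatives the value ran from -2.69 to -1.17 for TFF1 and from 0.51 to 0.76 for PDE9A.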

How the results depend on the processing

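The limits of these values are depth and number: 2 libraries per group, and TFF1, TFF2, TFF3, RSPH1 and UMODL1 with at most 62 reads in a library. For each value below that moved or changed sign, the cause was not tested.

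Members called are counted here without UBASH3A and TMPRSS3, whose values chose the neighbourhood. DESeq2 called 1752 genes in shMETTL3 against shCTR (2912 in edgeR), 713 in shMETTL14 against shCTR (1184), 1243 between the knockdowns (2148) and 16 in opposite directions (32). It called 0 of these members and 0 surrounding genes in every comparison. Without the filter, 766 genes were called in shMETTL14 against shCTR, 19 in opposite directions and 0 surrounding genes in shMETTL3 against shCTR. With the GC and length correction, 49 genes were called in opposite directions, 2 of these members in shMETTL14 against shCTR, and 3 surrounding genes in shMETTL3 against shCTR and 1 between the knockdowns. A fit of the compared groups only called 1 surrounding gene between the knockdowns. With library size alone, 71.6% of calls in shMETTL3 against shCTR were higher (53.0% with TMM), 62.6% in shMETTL14 against shCTR (51.3%) and 65.0% between the knockdowns (54.8%).

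With 1 library left out, the lone library of a group was assumed to vary like the other groups. Calls then ranged from 1102 to 3569 in shMETTL3 against shCTR, from 341 to 1913 in shMETTL14 against shCTR, from 942 to 2953 between the knockdowns, and from 7 to 22 in opposite directions. Of the members other than UBASH3A and TMPRSS3, those called ranged from 0 to 1 in shMETTL14 against shCTR (0 without shCTR replicate 1 or shMETTL14 replicate 2) and from 1 to 3 between the knockdowns (1 without shMETTL3 replicate 2 or shMETTL14 replicate 2). Surrounding genes called ranged from 0 to 3, 0 to 2 and 0 to 1.

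The replicate number did not pair the libraries (correlations of replicate differences 0.0894, -0.00614 and -0.0244). A replicate block called 2 surrounding genes in shMETTL14 against shCTR, and 3264, 1459 and 2478 genes in all, with no change to the number of members called apart from UBASH3A and TMPRSS3.

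Of 268 recomputed log2 values of members, 240 kept direction and side of the threshold and 12 changed sign, all in TFF1, WDR4 or SLC37A1. TFF1 in shMETTL3 against shCTR gave -0.58 without shCTR replicate 1 and -0.75 without shMETTL3 replicate 1 (from -0.75 to 1.29 over libraries left out). WDR4 there gave 0.05 with library size alone and 0.07 without shMETTL3 replicate 2 (from -0.09 to 0.07). In shMETTL14 against shCTR, SLC37A1 gave -0.01 with the GC and length correction, -0.03 without shCTR replicate 1 and -0.04 without shMETTL14 replicate 1 (from -0.04 to 0.11), and WDR4 gave 0.01 with library size alone and 0.04 without shMETTL14 replicate 2. Between the knockdowns, WDR4 gave -0.03 with the correction, -0.07 without shMETTL3 replicate 1 and -0.04 without shMETTL14 replicate 2 (from -0.07 to 0.09). UBASH3A and TMPRSS3 stayed between -1.84 and -1.66 and between -1.99 and -1.77 in shMETTL3 cells, and between 0.43 and 0.59 and between 0.51 and 0.70 in shMETTL14 cells.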
